A study of Mus musculus with 2 samples.

Results

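The cytosolic ribosomal protein genes encode the protein part of the ribosome that translates nuclear messages. They were taken by name: every gene of the deposited tables whose symbol is Rpl or Rps followed by a digit, with an optional letter and an optional l or x ending, plus Rpsa and the stalk genes Rplp0, Rplp1 and Rplp2, without the Rps6k kinases and without symbols ending in -ps. This gave 81 of 31053 genes, 50 of the large and 31 of the small ribosomal subunit. Rps3a1, Fau and Rack1 also encode ribosomal proteins or a ribosome-bound scaffold but their symbols do not match the rule, so they were kept apart and are described as such.

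A ribosome is built in the nucleolus from ribosomal RNA and about one copy of each of these proteins, and most of their messages start with a run of pyrimidines, the 5′ terminal oligopyrimidine (TOP) tract, through which growth signalling by mTOR sets their translation. Dividing and growing progenitors devote a large part of their messages to these genes, and terminally maturing blood cells such as red cells and neutrophils dismantle much of their ribosome production. Several members, among them Rps19, Rps24, Rpl5 and Rpl11, are mutated in Diamond-Blackfan anaemia, in which red cell progenitors fail.

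Bone marrow cells of mice were sorted into an E-cadherin+cKIT+ and an E-cadherin+cKIT- population, and each was sequenced as 1 single-cell library, so that neither sort has a replicate. The labels give the strain as FVB, and the text that reported the data names wild-type mice in one place and VaviCre;mTmG mice, which carry a Cre driven in blood cells and a fluorescent reporter, in another, with 3 mice as the source of the cells. Cells of different mice cannot be told apart in the deposited counts. E-cadherin is the adhesion protein encoded by Cdh1, and cKIT is the stem cell factor receptor encoded by Kit. After the study's cell filter, 6479 of 6632 cKIT+ and 3662 of 3745 cKIT- cells remained.

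Kit stood at 37.1 CPM (UMIs of a gene in 1000000 UMIs) in the cKIT+ and 0.875 CPM in the cKIT- library, the direction of the sort labels, and Cdh1 at 62.8 and 193 CPM. A UMI is a tag that marks 1 captured RNA molecule. The cKIT+ library was the deeper one, with 91108781 kept UMIs and a median of 13039 per cell against 22869169 and 4416.5. The libraries shared 10 cell barcodes. Both hold several lineages, so cells were also gated on marker lists: 3666 cKIT+ and 3242 cKIT- cells passed the basophil list alone, and 451 and 44 cells passed more than 1 list and were left out of every gate. Because each sort is 1 library, no test was possible. All intervals are exact 95% binomial intervals and cover counting error only, not the spread between mice or sorts.

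The 3′ tags count molecules and not fragment length, so levels of different members can be set side by side per molecule, except where reads match more than 1 gene, which the counting leaves out. Windows of 56 bases from the last 300 transcript bases were compared between genes, and 17 of the 81 members shared at least 1 window with another gene row of the tables. For Rpl10, Rps27, Rpl36a, Rpl35, Rps12, Rpl27 and Rps18 the shared part was 75.5% to 100% of windows. The levels of these 17 rows are uncertain. Rpl27 at 5.33 and 5.55 CPM, Rpl10 at 24.0 and 20.4 CPM, and Rps18 at 26.9 and 11.9 CPM are examples of core members with low rows, and none of them passed the minimum of 50 CPM in 1 library. Rps2, at 16.5 and 7.74 CPM, shared no window with a row of the tables but 75.1% of its windows with other annotated genes. How far read sharing set these levels was not tested.

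Pyrimidine runs near the annotated start were more frequent in members than in all genes. Most members examined nevertheless had no run of 8 or more bases. RefSeq promoters (GRCm38.p6) were at hand for 61 of the 81 members. A run of at least 8 C or T within 15 bases of an annotated start was found in 26 of 61 members (42.6%), in 13.9% of all 27025 genes with a promoter and in 14.5% of the 2551 such genes with at least 50 CPM in 1 library. The motif CCGGAAG, on either strand of the 300 bases around the start, was in 41% of members, 9.93% of all genes and 24.2% of the expressed ones. AAGATGGC, searched the same way, was in 8.2%, 3.19% and 6.39%, and GGGCGG in 60.7%, 38.2% and 70.8%. These 3 motifs do not contain one another. The 30 bases around the start are printed for members whose levels differed most and least between the sorts, so that their runs can be compared. The longest run of C and T is in capitals, and the annotated start is the base after the 15th. Runs on either side of the start were counted, so a counted run need not be a TOP tract. That of Rpl31 lies wholly before the RefSeq start, whereas the GENCODE start of the gene, chr1:39367842, falls within the run. The windows lie at chr2:39005117-39005146 (Rpl35, minus strand), chr1:39367836-39367865 (Rpl31), chr2:32961697-32961726 (Rpl12), chr7:3704026-3704055 (Rps9), chr11:114668565-114668594 (Rpl38), chr12:69184053-69184082 (Rpl36al, minus strand) and chrX:134585639-134585668 (Rpl36a), on the plus strand where no strand is named.
Rpl35: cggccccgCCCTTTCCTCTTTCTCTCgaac
Rpl31: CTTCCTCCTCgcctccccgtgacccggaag
Rpl12: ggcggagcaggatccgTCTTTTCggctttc
Rps9: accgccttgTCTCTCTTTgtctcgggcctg
Rpl38: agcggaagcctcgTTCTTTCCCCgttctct
Rpl36al: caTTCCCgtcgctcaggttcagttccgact
Rpl36a: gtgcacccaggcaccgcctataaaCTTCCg

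Rpl35 carried the longest run of these at 18 bases, Rpl31 and Rpl38 each had 10 and Rps9 had 9, whereas Rpl36a and Rpl36al had 5. Rpl35 and Rpl31 lay among the lowest and Rps9 and Rpl38 among the highest ratios between the sorts. Over the members with a promoter and at least 50 CPM, the median ratio of cKIT- to cKIT+ levels was 0.612 in the 25 with a run of at least 8 and 0.616 in the 28 without.

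Ribosomal protein genes took 26.1% of all UMIs in the cKIT+ and 16.1% in the cKIT- library. The cKIT- share was 0.616 times the cKIT+ share (95% interval 0.615 to 0.617). Per cell, the median share was 27.2% in cKIT+ cells, with quartiles of 21.6% and 30.8%, and 16.7% in cKIT- cells, with quartiles of 13.8% and 19.2%. A share above 20% was seen in 79.0% of cKIT+ and 19.2% of cKIT- cells. In UMIs per cell the gap was wider, since fewer UMIs were counted per cKIT- cell. A median cKIT+ cell held 3508 ribosomal protein UMIs and a median cKIT- cell 735. By the study's figures the cKIT- library also had fewer reads per cell, so sequencing depth and RNA content cannot be told apart here. A lower share and more of other messages cannot be told apart from these counts. The median cell had at least 1 UMI of 72 members in the cKIT+ and of 69 in the cKIT- library.

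**Figure D1:**
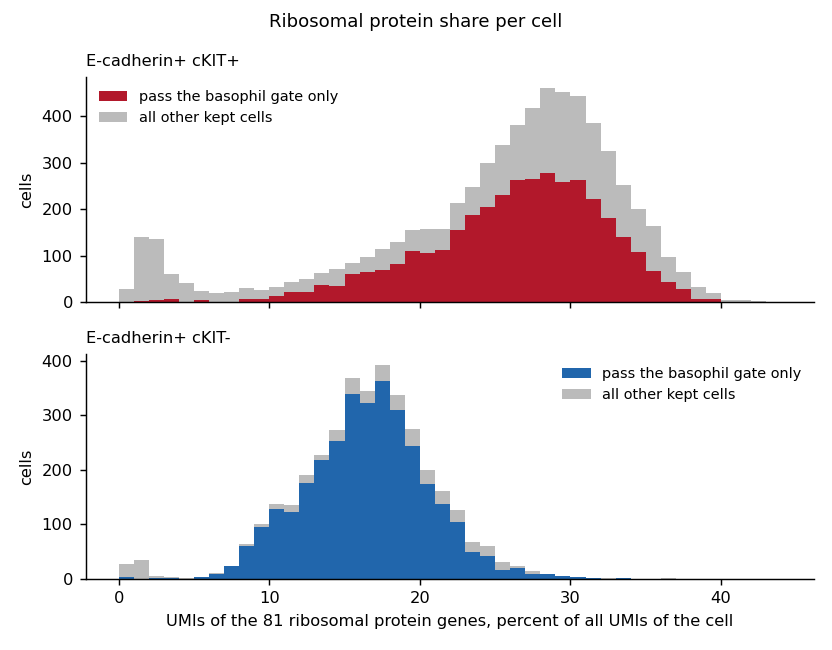
Number of cells (vertical axis) by the percent of their UMIs that came from the 81 ribosomal protein genes (horizontal axis, 1-percent steps), for the cKIT+ (upper) and cKIT- (lower) library; coloured bars are cells that passed only the basophil gate and grey bars, stacked on them, all other kept cells. The cKIT+ distribution is centred at 27.2% and has a separate group of mostly grey cells under 10%, and the cKIT- distribution is centred at 16.7%.

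Cells under 10% numbered 524 in the cKIT+ library, of which 377 passed the neutrophil or the erythroid gate alone. In the cKIT- library 277 cells lay under 10%, of which 64 were so gated. Within basophil-gated cells alone the shares were 26.6% and 16.2%, a ratio of 0.609 (0.608 to 0.610). The sorts therefore differed to about the same degree when other lineages were left out. In B cell-gated cells the ratio was 0.881 (0.873 to 0.888), from 22.1% in 67 cKIT+ and 19.5% in 224 cKIT- cells. These B cell-gated cells differed between the sorts in other genes too, with the class II chain Cd74 at 1669 and 12355 CPM, S phase genes at 0.178% and 0.0327% and G2 and mitosis genes at 0.383% and 0.114% of UMIs.

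Both subunits differed alike. Large-subunit genes took 14.3% of UMIs in cKIT+ and 8.79% in cKIT- cells, a ratio of 0.614 (0.613 to 0.615). Small-subunit genes took 11.8% and 7.30%, a ratio of 0.618 (0.617 to 0.619). The difference was also spread over the members and not carried by a few, as the 10 most abundant members made up 26.6% of the module in cKIT+ and 27.1% in cKIT- cells.

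Of the 81 members, 72 reached 50 CPM in 1 library. Of these, 50 exceeded their cKIT- level by 1.5-fold or more in cKIT+ cells, as did 15.1% of all 3224 genes at that level. The reverse held for 0 members and for 22.4% of all genes. The other 22 members lay within 1.5-fold, and 71 of the 72 had a ratio under 1. The median member ratio was 0.606, against 1.04 over all 3224 genes. Among large-subunit members 31 of 44 and among small-subunit members 19 of 28 were past 1.5-fold. Of the 60 members at that level that shared no window with another row, 41 were past 1.5-fold, with a median ratio of 0.602. In basophil-gated cells 48 of 72 members were past 1.5-fold toward cKIT+ (13.2% of all genes) and 0 toward cKIT- (20.4% of all genes), and all 72 had a ratio under 1.

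**Figure D2:**
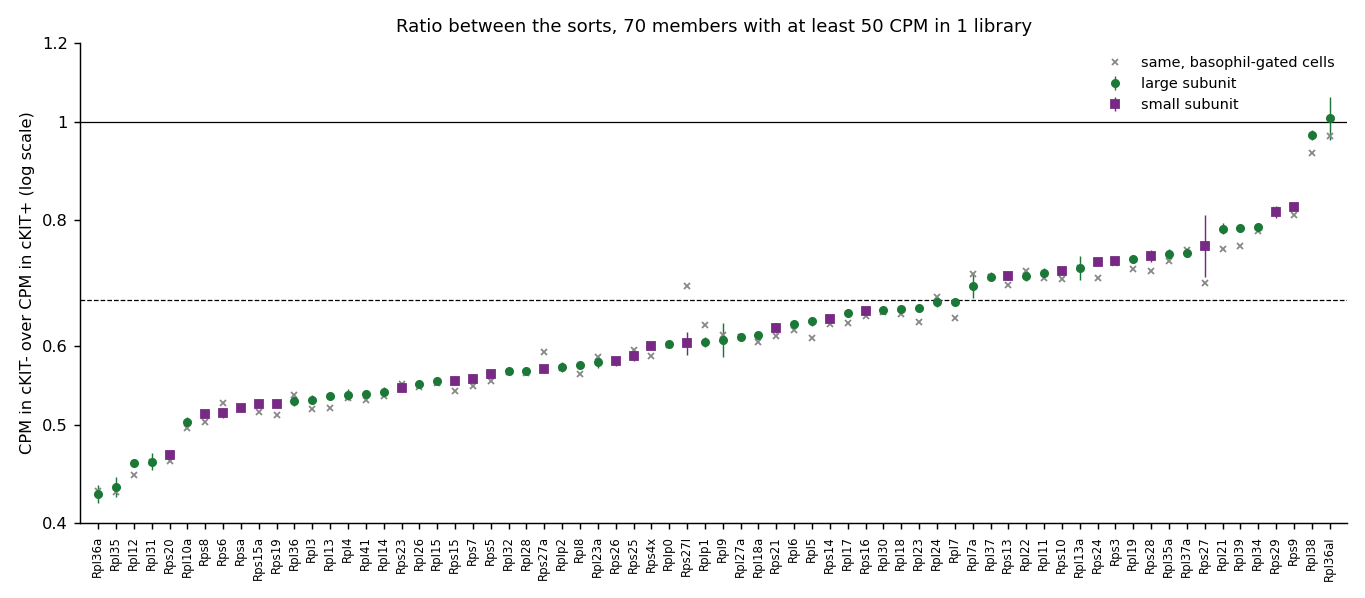
Level in cKIT- over level in cKIT+ cells (vertical axis, log scale) for 70 of the 72 members with at least 50 CPM in 1 library, in order of the ratio; circles are large-subunit and squares small-subunit members with 95% counting intervals, crosses the same ratio in basophil-gated cells, and the dashed line a 1.5-fold difference. The ratios run from 0.427 for Rpl36a to 1.01 for Rpl36al, with 49 of the plotted members under the dashed line.

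The members did not differ evenly. Among the lowest ratios were those of 4 large-subunit members. Rpl36a, the X-linked gene of a protein near the site where transfer RNA leaves (chrX:134585654-134588062, GRCm38), was at 1084 and 463 CPM, a ratio of 0.427 (0.419 to 0.436). Rpl35, which sits at the mouth of the tunnel through which new protein leaves (chr2:39001580-39005624), was at 778 and 338 CPM, a ratio of 0.434 (0.424 to 0.445). Both of these rows share most of their windows with another row. Rpl31, near the same tunnel mouth, was at 1099 and 506 CPM, a ratio of 0.460 (0.451 to 0.469). Rpl12, at the base of the stalk that binds translation factors, was at 4700 and 2156 CPM, a ratio of 0.459 (0.454 to 0.463). Rpl31 and Rpl12 share no window with another row, and their counting intervals overlap.

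At the other end, 4 members differed little or less than the rest. Rpl36al, the autosomal relative of Rpl36a, was at 87.6 CPM in cKIT+ and 88.4 CPM in cKIT- cells. Its ratio of 1.01 (0.960 to 1.06) was not distinguishable from 1 at this depth. The row of Rpl36al shares 62% of its windows with another row, so its level is uncertain here and below. Rpl38, which in mice is needed for translation of Hox messages, was at 1393 and 1353 CPM, a ratio of 0.972 (0.960 to 0.984). Rps9, which acts in accurate decoding, was at 5351 and 4410 CPM, a ratio of 0.824 (0.819 to 0.830). Rps29, which in mouse lies near Rpl36al on chromosome 12, was at 1422 and 1159 CPM, a ratio of 0.815 (0.804 to 0.825). Relative to the module as a whole these genes made up a larger part of it in cKIT- cells.

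The most abundant members kept the direction of the module. Rpl13, the highest, was at 8596 CPM in cKIT+ and 4592 CPM in cKIT- cells, a ratio of 0.534 (0.531 to 0.538). Rps24 was at 8536 and 6200 CPM, a ratio of 0.726 (0.722 to 0.731), and so became the most abundant of the 3 in cKIT- cells. Rpl23, a regulator of Mdm2 beside its ribosomal role, was at 7380 and 4825 CPM, a ratio of 0.654 (0.650 to 0.658).

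The stalk proteins, which recruit translation factors to the large subunit, were close to one another in ratio. Rplp0 was at 5060 and 3045 CPM, a ratio of 0.602 (0.597 to 0.607). Rplp1 was at 2322 and 1405 CPM, a ratio of 0.605 (0.598 to 0.612), and Rplp2 at 2501 and 1429 CPM, a ratio of 0.571 (0.565 to 0.578). The intervals of Rplp0 and Rplp1 overlap and that of Rplp2 lies lower. Rpsa, a small-subunit protein first described as a laminin receptor, was lower still, at 6384 and 3319 CPM, a ratio of 0.520 (0.516 to 0.524).

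The paralogues with tissue-restricted use were at the edge of detection, and their broadly used relatives were not. Rpl10l, the germ cell copy of X-linked Rpl10, had 5 UMIs in the cKIT+ and 0 in the cKIT- library, where 0 UMIs allows up to 0.131 CPM. Rpl3l, the striated muscle relative of Rpl3, had 8 and 3 UMIs, and Rpl39l, a germ cell relative of Rpl39, had 20 and 7. Their ratios cannot be told from 1, with intervals of 0.255 to 6.22 for Rpl3l and 0.498 to 3.43 for Rpl39l. Rpl3, which lies close to the peptide-forming centre, was at 3562 and 1888 CPM, a ratio of 0.530 (0.525 to 0.535). Rpl39, which lines the exit tunnel, was at 4187 and 3287 CPM, a ratio of 0.785 (0.779 to 0.791).

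Rps27l, a p53 target and relative of Rps27, was well detected, at 456 and 275 CPM, a ratio of 0.603 (0.587 to 0.619). In basophil-gated cells its ratio was 0.687, within 1.5-fold. Rps27, whose row shares every window with Rps27rt, was at 54.0 and 40.8 CPM, a ratio of 0.754 (0.702 to 0.809). X-linked Rps4x was at 6424 and 3854 CPM, a ratio with an interval of 0.596 to 0.604.

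Ribosomal protein genes that the name rule leaves out also differed unevenly. Rack1, a signalling scaffold on the small subunit, was at 4061 and 1931 CPM, a ratio of 0.476. Rpl22l1, the relative of Rpl22, was at 1052 and 504 CPM, a ratio of 0.479. Rps3a1, singled out after its values were seen, was at 6356 and 3988 CPM, a ratio of 0.627. Fau, whose product is split into a ubiquitin-like part and the ribosomal protein Rps30, was at 5395 and 5562 CPM, a ratio of 1.03. Rpl7l1 was at 119 and 89.9 CPM, a ratio of 0.757. Rps27rt was at 42.3 and 53.5 CPM with 88.2% of its windows shared.

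Cells that passed no gate of another lineage were ordered by the share of their UMIs from Prss34, a granule protease of basophils. Of the 415 cKIT+ cells without Prss34, 132 passed the basophil gate and the rest no gate. The module took 30.9% of UMIs in these 415 cells. It took 30.4% up to 0.1% Prss34, 29.0% from 0.1 to 1%, 26.5% from 1 to 3% and 22.2% from 3 to 6%. In the 85 cKIT+ cells above 6% it took 16.6%, which was 0.537 times the level without Prss34. The share was lower in each successive group, and in the same order Kit went from 59.5 to 1.99 CPM, while Mcpt8, another basophil protease, went from 1274 to 37847 CPM. The last Kit value lies under the 2.99 CPM that 3 UMIs would give in that group.

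In cKIT- cells the course was nearly flat, and the cells without Prss34 were unlike those of the cKIT+ sort. They held Mcpt8 at 2129 CPM, Cdh1 at 338 CPM and 0 UMIs of Kit and of Cd34, a progenitor marker, which allows up to 2.0 CPM, against 59.5 CPM of Kit and 146 CPM of Cd34 in the cKIT+ cells without Prss34. S phase genes took 0.00932% and G2 and mitosis genes 0.00206% of their UMIs, and 0.118% and 0.347% in cKIT- cells above 6%, where Cd34 was at 10.1 CPM. In cKIT- cells the group highest in Prss34 thus held more Cd34 and more cell cycle messages than the group without Prss34. Whether the order by Prss34 follows maturation in either direction was not tested. Groups of equal Prss34 share were not matched in these markers across the sorts. Without Prss34, 531 of the 552 cKIT- cells passed the basophil gate, against 132 of the 415 cKIT+ cells. The module took 17.5% of UMIs in the 552 cells without Prss34, 17.8% up to 0.1%, 18.1% from 0.1 to 1%, 18.0% from 1 to 3%, 16.4% from 3 to 6% and 14.5% in the 707 cells above 6%. The highest group was at 0.829 times the lowest. With Prss34 left out of the total, the ends were 30.9% and 17.8% in cKIT+ and 17.5% and 15.6% in cKIT- cells. The shares of both sorts thus lay far apart in cells without Prss34 and closer together above 6%: the ratio of cKIT- to cKIT+ was 0.565 (0.562 to 0.567) in the first and 0.872 (0.867 to 0.876) in the last group. The groups above 6% were not matched in G2 and mitosis genes, which took 0.513% of cKIT+ and 0.347% of cKIT- UMIs. In cells above 6% with more than 0.1% of UMIs in these genes, the shares were 15.4% in 62 cKIT+ and 12.5% in 365 cKIT- cells.

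Counts of ribosomal protein molecules per cell took another course than the share. A median cKIT- cell held 473 of them without Prss34 and 1297 above 6%, as its total went from 2778 to 9473 UMIs. A median cKIT+ cell held 2946 without Prss34, 4417 up to 0.1% and 2045 above 6%. The lowest groups are limited by background: B cell-gated cells, which should lack Prss34, held it at 111 CPM in cKIT+ and 151 CPM in cKIT- cells. These levels lie within the group up to 0.1%. Whether free RNA or mixed droplets gave these counts was not tested.

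**Figure D3:**
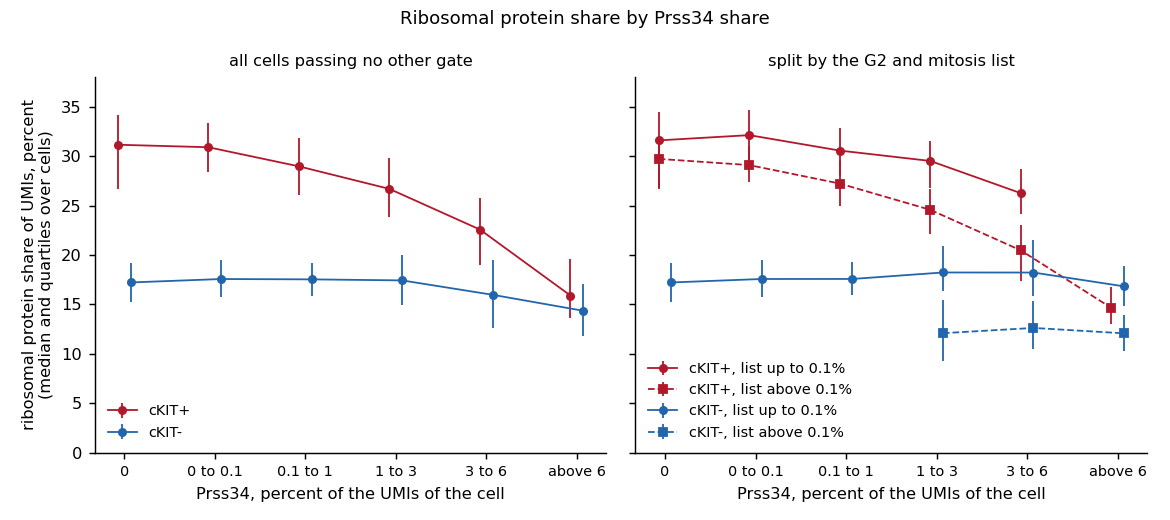
Ribosomal protein share of UMIs (vertical axis, median and quartiles over cells) by the share of Prss34 (horizontal axis, percent of UMIs), for all cells that passed no other gate (left) and split by whether G2 and mitosis genes took more than 0.1% of UMIs (right, squares and dashed lines above 0.1%, groups of at least 50 cells). The cKIT+ medians go from 31.2% to 15.9% while the cKIT- medians stay between 14.4% and 17.6%.

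Cells with many G2 and mitosis messages held less of the module within every Prss34 group with at least 50 cells of both kinds. From 3 to 6% Prss34, the share was 20.6% in the 530 cKIT+ cells whose G2 and mitosis genes took more than 0.1% of UMIs and 26.2% in the other 305. In cKIT- cells of the same group it was 13.7% in 407 and 19.7% in 484 cells. Above 6% it was 12.5% and 17.6% in cKIT- cells. In cells low in these genes, the cKIT+ share was 31.5% without Prss34 and 26.2% from 3 to 6%. The cKIT- share of such cells was 17.5% without Prss34 and 17.6% above 6%, but higher between these ends. It was 17.8% up to 0.1%, 18.2% from 0.1 to 1%, 20.1% from 1 to 3% and 19.7% from 3 to 6%. The G2 and mitosis genes themselves took 0.0951% of cKIT+ UMIs without Prss34 and 0.513% above 6%, and 0.00206% and 0.347% of cKIT- UMIs. Their part in the course of the module was not tested beyond this split.

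Member by member, both sorts differed in kind. Between cKIT+ cells without Prss34 and those above 6%, 66 of 72 members were at least 1.5-fold lower in the latter, where 19.8% of all genes were, and 0 were higher, where 21.6% were. All 72 had a ratio under 1, from 0.360 for Rpl36 to 0.826 for Rpl36al. The count rests on the 85 cells above 6%: with the 835 cells from 3 to 6% in their place, 13 members were 1.5-fold lower (11.7% of all genes) and 71 of 72 had a ratio under 1. Among cKIT+ cells low in G2 and mitosis genes, where only the group from 3 to 6% held enough cells, 0 of 72 members were 1.5-fold lower (311 of 2951 genes) and the median member ratio was 0.827.

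Between the same groups of cKIT- cells, 16 members were at least 1.5-fold lower above 6% (32.6% of all genes), 8 were at least 1.5-fold higher (22.8% of all genes) and 48 were within 1.5-fold. The nearly flat share therefore held members that went opposite ways. The shares of members called were below those of all genes in both directions. In basophil-gated cells alone 17 members were lower (32.7% of all genes) and 8 higher (22.7%). Among cells low in G2 and mitosis genes 4 were lower (33.7% of all genes) and 11 higher (15.3% of members and 16% of all genes).

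The 8 higher members included Rps20, Rpl3, Rpl31, Rpl28, Rpl36al, Rps27l and Rpl35, of which Rps20 and Rpl28 are named after their values were seen. Rpl3 was at 902 CPM without and 1923 CPM above 6%, a ratio of 2.13 (2.02 to 2.26). Rpl31 was at 278 and 530 CPM, a ratio of 1.91 (1.72 to 2.12). Most of each difference lay below 3% Prss34, after which the level stayed about even.

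Rpl35 was at 198 and 330 CPM, a ratio of 1.67 (1.48 to 1.89). Rps27l was at 169 and 306 CPM, a ratio of 1.81 (1.59 to 2.07), and Rpl36al, from 75 and 650 UMIs, at 49.9 and 94.2 CPM, a ratio of 1.89 (1.48 to 2.43). Rpl31 and Rpl35, described above for their low ratios between the sorts, are thus among these 8, and Rpl36a at 312 and 441 CPM and Rpl12 at 1528 and 2038 CPM pointed the same way within 1.5-fold.

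Rps9 went the other way, from 7308 CPM without Prss34 through 7098, 6231, 4945 and 3903 CPM to 3382 CPM above 6%, a ratio of 0.463 (0.452 to 0.474). Rpl38 was at 2084 and 1113 CPM, a ratio of 0.534 (0.513 to 0.557). Rplp1 was at 2335 and 1107 CPM, a ratio of 0.474 (0.455 to 0.494), unlike its partners in the stalk, Rplp0 at 3230 and 2792 CPM and Rplp2 at 1334 and 1328 CPM. Rplp1 shared 63.7% of its windows with another row, Rplp2 4.08% and Rplp0 0%. Fau, outside the rule, was at 9344 and 4422 CPM. Rps9 and Rpl38 were higher in cKIT- than in cKIT+ cells without Prss34, where cKIT+ cells held 6653 and 1591 CPM. From 3 to 6% they were lower in cKIT- cells, with Rps9 at 3903 against 4618 CPM and Rpl38 at 1278 against 1397 CPM, and above 6% Rpl38 was at 1113 and 1105 CPM.

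**Figure D4:**
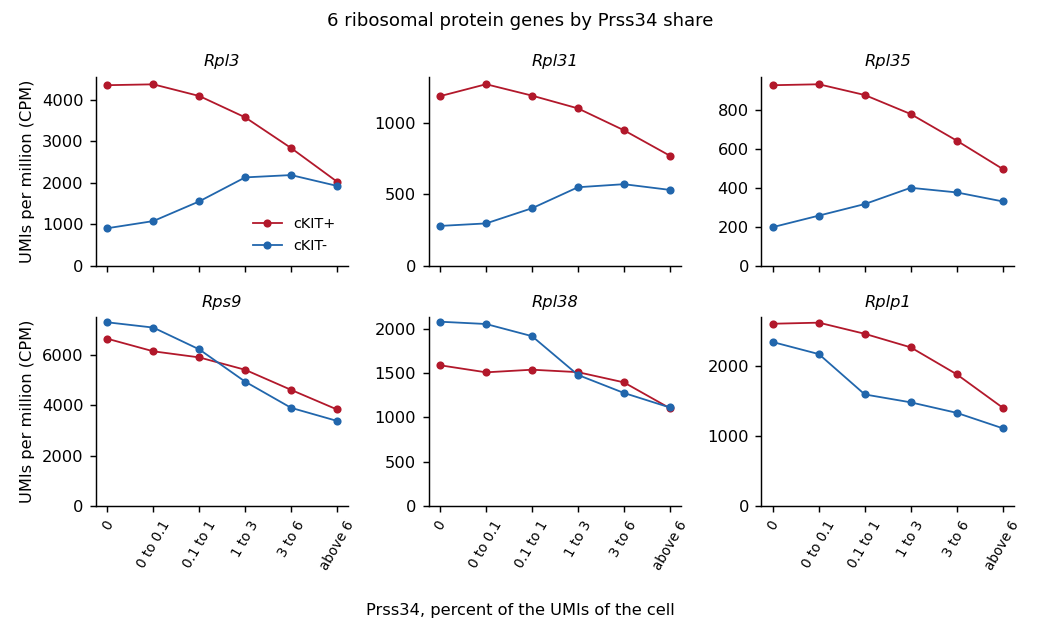
Level of 6 members (vertical axes, CPM, each from 0) by the share of Prss34 (horizontal axis, percent of UMIs) in cKIT+ and cKIT- cells; each point is the pooled level of 1 group of cells in 1 library. In cKIT- cells Rpl3, Rpl31 and Rpl35 (upper row) are lowest without Prss34, and Rps9, Rpl38 and Rplp1 (lower row) are highest there, whereas in cKIT+ cells each is lower above 6% than without Prss34.

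Cells of equal Prss34 share, which differ in Kit and Cd34 as given above, were also compared between the sorts. Without Prss34, 51 of 72 members were past 1.5-fold toward cKIT+ (30% of all genes) and 0 toward cKIT- (36.3%), and the ratios of Rps20 and Rpl38 were 0.190 and 1.31. Up to 0.1% Prss34 the count toward cKIT+ was 46 (31.9% of all genes, 36.6% toward cKIT-), from 0.1 to 1% it was 43 (28.1% and 34.7%) and from 1 to 3% it was 35 (15.6% and 25.1%). From 3 to 6%, 13 of 71 members were past 1.5-fold toward cKIT+ (3.94% and 9.52%), and above 6% only Rpl35 was (3.17% and 3.47%), with ratios from 0.664 to 1.29 (Rpl36al). No member was past 1.5-fold toward cKIT- in any of these 6 groups. The counts for the members and for all genes were both lower in the Prss34-rich groups.

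The lineage gates of the cKIT+ library gave shares from 6.39% to 31.1%, a 4.87-fold range. The gates were cut on the summed UMI share of marker lists, and none of the lists holds a member of the module. Eosinophil-gated cells, 238 with Prg2 at 16262 CPM, were at 31.1% and the 873 cells in no gate at 30.9%. The 368 granulocyte/monocyte progenitor-gated cells, with Elane at 13163 CPM, were at 28.7%, the 184 mast cell-gated cells, with Gzmb at 2451 CPM, at 28.5%, and basophil-gated cells at 26.6%. The mast cell list took 0.274% of UMIs in its gate, most of it from Gzmb, with Kit at 185 CPM. The name of that gate thus rests mainly on Gzmb. B cell-gated cells were at 22.1%, 76 dendritic cell-gated cells at 22.0%, 56 monocyte-gated cells at 21.1% and 72 macrophage-gated cells, with C1qa at 6212 CPM, at 12.1%. The progenitor, eosinophil, mast cell and basophil gates thus lay above the gates of B cells, dendritic cells, monocytes and macrophages.

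Neutrophil-gated and erythroid-gated cells stood apart. The 374 neutrophil-gated cKIT+ cells were at 6.39%, with a median cell at 2.55%, and the 54 erythroid-gated cells at 7.94%, with a median cell at 1.09%. In both gates the lineage list itself took a large part of the UMIs, 43.0% and 49.2%, and without it in the total the shares were 11.2% and 15.6%. The 289 neutrophil-gated cells whose list took over 40% of UMIs held the module at 3.24%, and the 75 with 10 to 40% at 15.3%. The 38 erythroid-gated cells with over 40% haemoglobin messages held it at 1.39%, and the other 16 at 19.5%. The 61 neutrophil-gated cKIT- cells were at 1.92%.

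**Figure D5:**
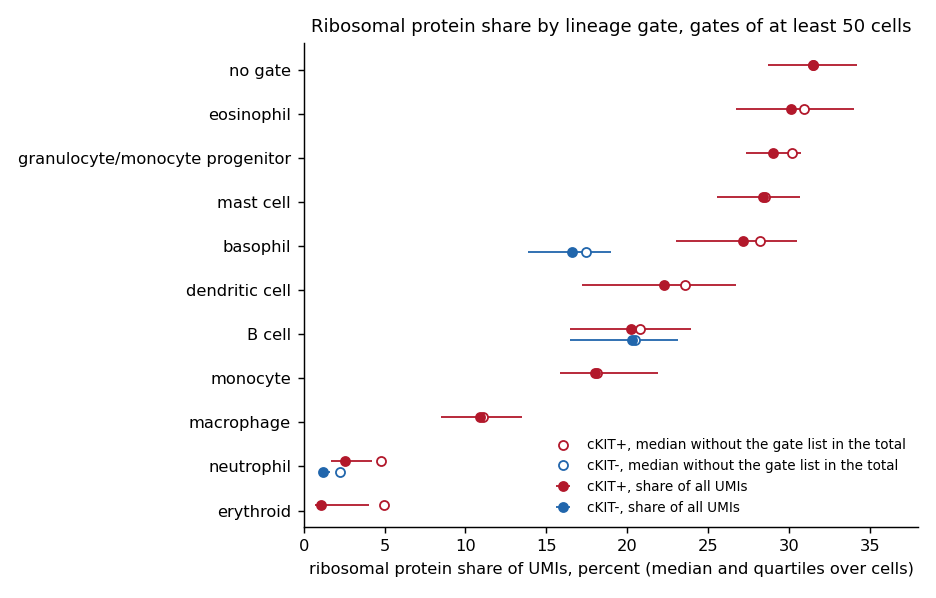
Ribosomal protein share of UMIs (horizontal axis, median and quartiles over cells) for each lineage gate with at least 50 cells (vertical axis); filled points use all UMIs and open points leave the marker list of the gate out of the total. In the cKIT+ library the medians run from 1.09% in the erythroid and 2.55% in the neutrophil gate to 31.5% in cells of no gate.

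As shares of all UMIs, every member that reached 50 CPM was lowest in the neutrophil or the erythroid gate. Of these 72 members, 60 were lowest in the neutrophil gate and 12 in the erythroid gate. The highest level was in the eosinophil gate for 29, in no gate for 28, in the mast cell gate for 11 and in the progenitor gate for 4. The span from the lowest to the highest gate had a median of 5.29-fold and ran from 3.75-fold for Rps27l to 7.11-fold for Rpl36a. With the marker list of each gate left out of its total, macrophage-gated cells at 12.3% lay below erythroid-gated cells at 15.6%, and the range of the module over gates was 2.84-fold. On that scale 51 members were lowest in the neutrophil, 19 in the macrophage and 2 in the erythroid gate, and the median span was 3.11-fold.

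Rpl36a went from 202 CPM in neutrophil-gated to 1437 CPM in eosinophil-gated cells. Rpl12 went from 831 CPM in neutrophil-gated cells to 5671 CPM in cells of no gate, a 6.82-fold span. Rps9, 1267 CPM in erythroid-gated cells, was highest in mast cell-gated cells at 8633 CPM, with 5470 CPM in basophil-gated cells. Rpl13a, part of a complex that silences inflammatory messages, spanned 74.1 to 503 CPM and Rpl10a 758 to 4954 CPM, both from neutrophil-gated to mast cell-gated cells. Rpl36al was instead lower in mast cell-gated cells, at 52.4 CPM, than in basophil-gated cells at 91.8 CPM and progenitor-gated cells at 107 CPM. Mast cell-gated cells thus held more Rps9 and less Rpl36al than basophil-gated cells of the same library.

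Among the rare paralogues, Rpl39l was at 1.27 CPM in progenitor-gated and 0.0753 CPM in basophil-gated cKIT+ cells. In these gates 3 UMIs would give 0.317 and 0.0565 CPM, so both values rest on few UMIs. Rps27l was also highest in progenitor-gated cells, at 745 CPM, with 408 CPM in basophil-gated cells.

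Other parts of the translation machinery did not all share the difference. The 15 translation factors and other TOP messages, all at 50 CPM or more, had a median ratio of 0.858. Of these 3 (20%) were past 1.5-fold with the higher level in cKIT+, near the 15.1% of all genes. In cKIT- 0 were, against 22.4% of all genes. Eef1a1, the elongation factor that delivers transfer RNA, was at 8514 and 7344 CPM, a ratio of 0.863, and Tpt1, a growth-related TOP message, at 7629 and 7465 CPM, a ratio of 0.979. Eef1b2, which reloads Eef1a1 with GTP, was at 2235 and 1023 CPM, a ratio of 0.458. Naca, which shields new chains on the ribosome, was at 1796 and 1263 CPM, a ratio of 0.703.

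Genes of nucleolar ribosome assembly differed more than the ribosomal proteins. Of 28 on the list 18 reached 50 CPM, with a median ratio of 0.364. Of these, 17 were past 1.5-fold toward cKIT+ (15.1% of all genes) and 0 toward cKIT- (22.4% of all genes). Several of the 17 reached 50 CPM only in the cKIT+ library, where they were higher, so the minimum favoured these calls. The whole list, without a minimum, took 0.461% of UMIs in basophil-gated cKIT+ and 0.194% in basophil-gated cKIT- cells. The 4 genes named next reached 50 CPM in both libraries. Npm1, the main nucleolar chaperone, was at 1846 and 603 CPM, a ratio of 0.327, Ncl at 909 and 332 CPM, a ratio of 0.365, Nop10 at 341 and 159 CPM, a ratio of 0.467, and the rRNA methylase Fbl at 223 and 75.2 CPM, a ratio of 0.337. Along Prss34 the list went from 0.630% of UMIs to 0.228% in cKIT+ cells and from 0.151% to 0.185% in cKIT- cells, where it was highest from 3 to 6% at 0.219%.

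Mitochondrial ribosomal proteins, encoded by separate genes, differed less. Of 78 genes 50 reached 50 CPM, with a median ratio of 0.730, and 47 of these had a ratio under 1. The higher level was in cKIT+ by 1.5-fold or more for 18 (36%, against 15.1% of all genes). It was in cKIT- for 0 (22.4% of all genes). Several of the 18 reached 50 CPM only in the cKIT+ library, where they were higher, so the minimum favoured these calls. The whole list, without a minimum, took 0.625% of UMIs in basophil-gated cKIT+ and 0.492% in basophil-gated cKIT- cells. Mrpl33 was at 290 and 338 CPM, a ratio of 1.16, and Mrps33 at 202 and 223 CPM, a ratio of 1.11, whereas Mrpl18 was at 233 and 194 CPM, a ratio of 0.830, and Mrps14 at 234 and 171 CPM, a ratio of 0.733.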

How the data were processed

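The authors aligned single-cell reads to mm10 with Cell Ranger 3.0.2 and deposited 1 table of UMI counts for each sort, not normalized. The methods name version 3 and the labels version 2 of the 10x 3′ kit, and the release of the annotation is not given in the sources used here. As in the study, cells in the top or bottom 1% by detected genes (counting only genes seen in 40 cells or more) or the top 1% by UMIs were dropped. CPM is the summed UMIs of a gene in 1000000 UMIs of the same cells.

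With 1 library per sort no test was made and no p-value is given. Shares carry exact (Clopper-Pearson) and ratios exact conditional binomial intervals at 95%, for counting error only. A gene was tallied when it reached 50 CPM in either of the libraries or groups compared, and called when it then differed 1.5-fold or more. Members and gene lists were chosen with earlier results of these data known, and the cutoffs of the 10 marker gates were set after their distributions had been seen. Gates required more than 0.5% of UMIs (basophil, eosinophil, dendritic cell, macrophage), 0.1% (mast cell), 2% (granulocyte/monocyte progenitor), 1% (neutrophil, erythroid) or 0.3% (monocyte, B cell). B cells and macrophages could also pass the dendritic cell gate. No doublet caller was run. Cells passing more than 1 gate were left out of the gates.

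Genes named are the 5 members with the largest ratio each way, the 5 with the widest span over gates, the 3 highest and 3 lowest, paralogues with an l or x ending and their relatives, Rpsa and the stalk, ribosomal proteins outside the rule, and at most the 4 highest of each other list. Some genes that meet this rule are not reported here. The members called between Prss34 groups, which add Rps20, Rpl28 and Rpl36, and some examples of background or read sharing fall outside it and were chosen after their values were seen. So were the growth regulators Eif4ebp1 and Larp1, named because they were called. Positions come from GENCODE M21 (GRCm38, the assembly of mm10) and promoters from RefSeq. Python 3.11.15, numpy 2.4.6, scipy 1.17.1, pandas 2.3.3, matplotlib 3.10.9 and, for TMM scaling, edgeR 4.0.16 in R 4.3.3 were used.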

Additional observations from a re-analysis of the deposited data

How the results depend on the processing

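No paired analysis was possible because each sort is 1 library. The ratio of the module share between sorts (0.616) and within basophil-gated cells (0.609), the ratios of the highest to the lowest Prss34 group in cKIT+ (0.537) and cKIT- cells (0.829) and the range over gates (4.87-fold) kept their direction under every alternative run. For the range this was fixed in advance, since the highest gate over the lowest cannot fall under 1. In that order these values were 0.618, 0.611, 0.541, 0.832 and 4.27 in all deposited cells. After thinning each cell to 2000 UMIs they were 0.646, 0.624, 0.553, 0.839 and 6.76 (345 cKIT+ and 176 cKIT- cells were shallower and dropped). They were 0.658, 0.651, 0.606, 0.917 and 3.99 without the 10 most abundant other genes in the total, and 0.654, 0.626, 0.580, 0.853 and 6.63 with every cell weighted alike. Without the 5% of cells with most UMIs, 4 of them were 0.621, 0.613, 0.834 (cKIT- groups) and 5.74. The first was 0.615 without cells above 10% mitochondrial UMIs and 0.601 with TMM scaling. Added after seeing the data, the first 2 were 0.622 and 0.615 with ribosomal proteins outside the name rule added, and 0.273 and 0.272 as UMIs per cell. Ratios of UMIs per cell also hold the difference in reads per cell between the libraries. The range over gates was 2.84-fold with each gate's list left out of its total. The second was 0.620 with the basophil gate at 1%, and the cKIT+ group ratio 0.558 in basophil-gated cells. In alternatives likewise added, members 1.5-fold lower in the highest Prss34 group went from 66 to 13 (cKIT+; 11.7% of all genes) and from 16 to 8 (cKIT-; 29.2% of all genes) with 3 to 6% Prss34 as the highest group. In cells low in G2 and mitosis genes they went to 0 (311 of 2951 genes) and 4 (33.7% of all genes), with 3 to 6% as the highest cKIT+ group. The cause was not tested. The count of 50 members higher in cKIT+ cells ran from 37 to 53, and that toward cKIT- was 0 throughout. Over all genes, 486 and 721 of 3224 were past 1.5-fold toward cKIT+ and cKIT- (15.1% and 22.4%). The counts were 3889 and 3025 with a minimum of 10 UMIs, and 148 and 201 with one of 200 CPM. How many genes passed these other minimums is not given here, so the range of the member count cannot be set against them. The total without the 10 most abundant genes moved the median ratio over all genes from 1.04 to 1.12. That change multiplies the ratios of all other genes by a common factor. For genes near 1, such as Rpl38, the direction therefore depends on the total used. Of the values for single genes and other counts, 252 stayed within their counting interval or 1.5 times, 205 did not and 0 were counted as reversed. Of the checks on the main results, 41 stayed the same in this sense, 37 moved and 0 reversed, where a range over gates could not reverse. The depth of 0 to 20 UMIs per library limits Rpl10l, Rpl3l and Rpl39l. Rpl10l and Rpl3l gave no ratio after thinning.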

Other observations

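Regulators and targets around ribosome production were at low levels and did not move as 1 group. Of 12 growth regulators of ribosome synthesis 7 reached 50 CPM in 1 library. Of these 2 were past 1.5-fold toward cKIT+ (15.1% of all genes) and 1 toward cKIT- (22.4% of all genes). The 2 were Eif4ebp1 at 73.1 and 41.9 CPM and Larp1 at 64.9 and 30.2 CPM. Each called gene reached 50 CPM only in the library where it was higher, so the minimum favoured these calls. Max, the partner of Myc, was at 40.3 CPM in cKIT+ and 75.3 CPM in cKIT- cells, a ratio of 1.87. Rheb, which activates mTOR, was at 104 and 125 CPM, the translation repressor Eif4ebp2 at 80.4 and 102 CPM, and Maf1, a repressor of RNA polymerase III, at a ratio of 1.44, all within 1.5-fold.

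Of 9 p53 targets, which respond when ribosome assembly is disturbed, 2 reached 50 CPM and neither was past 1.5-fold. Bax was at 131 and 160 CPM and Mdm2 at 36.0 and 53.6 CPM, a ratio of 1.49. Ccng1, at 26.6 and 31.7 CPM, was below the minimum. Of 10 S phase genes listed, 8 reached 50 CPM. For 2 of these (25%, against 15.1% of all genes) the cKIT+ level was higher by 1.5-fold or more. For 1 (12.5%, against 22.4% of all genes), Rrm2 with 93.6 and 152 CPM, the cKIT- level was. Of 12 G2 and mitosis genes listed, 11 reached 50 CPM. A cKIT+ level higher by that much was seen for 0 (15.1% of all genes). A cKIT- level higher by that much was seen for 1 (9.09%, against 22.4% of all genes). Ube2c at 335 and 460 CPM and Top2a at 420 and 364 CPM lay within 1.5-fold.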
